A study of Mus musculus with 4 samples.

Results

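The barcodes described here are those with the fewest UMIs (unique molecular identifiers, each counting 1 captured RNA molecule) in the deposited cell lists. They were chosen by 2 measured values, a total of at least 500 and fewer than 1000 UMIs, and mitochondrial (mt-) genes at no more than 25% of UMIs. Both values are a description and are tested nowhere. The rule found 3028 of 35079 barcodes over 4 libraries. There were 888 of 7113 in the 6-month CCR2-DTR library and 674 of 5089 in the 6-month WT library. At 1 month there were 1095 of 12444 in CCR2-DTR islets, against 371 of 10433 in WT islets. They were 12.5% in 6-month CCR2-DTR, 13.2% in 6-month WT, 8.80% in 1-month CCR2-DTR and 3.56% in 1-month WT islets. The mt- limit removed unequal shares of the barcodes in this UMI range. At 6 months it removed 14.1% in CCR2-DTR and 0.148% in WT islets. At 1 month it removed 9.58% in CCR2-DTR and 28.5% in WT islets.

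The study profiled islets of Langerhans of female mice on a C57b6/J background by 10x Genomics single-cell RNA-seq. CCR2-DTR+/- mice carry a diphtheria toxin receptor meant to make cells that express the chemokine receptor CCR2 sensitive to the toxin, and WT CCR2-DTR-/- littermates lack it. Newborns of both genotypes received diphtheria toxin in 4 injections 48 hours apart from postnatal day 2, so the WT mice were treated as well. Mice were weaned at 21 days and kept until 6 months or 1 month of age. Each of the 4 groups is 1 library of islets pooled from 2 to 3 females. No comparison between genotypes or ages has a replicate, and intervals given for one are 95% intervals for counting error only. Genotype or age and the single library of each group cannot be told apart.

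RNA released by damaged cells floats in the suspension from which single cells are captured, and each droplet takes up some of it. A barcode with few UMIs can hold such free RNA, a fragment or nucleus of a cell, or a small cell. In the pancreas, acinar cells make very large amounts of digestive enzymes and surround the islets, and beta cells devote much of their RNA to insulin, so both are known as sources of free RNA. Barcodes below the listed totals were not analysed here, and the shallow barcodes stand in for free and debris RNA. They were set against deep cells of the same library, defined as barcodes with at least 5000 UMIs and no more than 25% mt- UMIs (21037 barcodes). In sums over barcodes, fewer cells of a type and less RNA per cell cannot be told apart.

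Shallow barcodes had a median UMI total of 752 in 6-month CCR2-DTR, 757 in 6-month WT, 762 in 1-month CCR2-DTR and 689 in 1-month WT islets. Medians in deep cells were 19808 in 6-month CCR2-DTR, 20162 in 6-month WT, 10773 in 1-month CCR2-DTR and 13667 in 1-month WT islets. The UMIs summed over shallow barcodes came to 683033 in 6-month CCR2-DTR, 531122 in 6-month WT, 845000 in 1-month CCR2-DTR and 261101 in 1-month WT islets. The lowest listed total differed between libraries, at 597 in 6-month CCR2-DTR, 684 in 6-month WT, 573 in 1-month CCR2-DTR and 500 in 1-month WT islets. Of the shallow barcodes, 0.539 to 0.890% carried a barcode sequence also listed in another library, against 0.607 to 0.942% of deep cells. As a check of the genotype labels, Ccr2 in shallow barcodes had 8 UMIs in 6-month CCR2-DTR, 0 UMIs in 6-month WT, 6 UMIs in 1-month CCR2-DTR and 0 UMIs in 1-month WT islets. Ccr2 in deep cells had 550 UMIs in 6-month CCR2-DTR, 165 UMIs in 6-month WT, 354 UMIs in 1-month CCR2-DTR and 70 UMIs in 1-month WT islets. Ccr3, its neighbour in the genome, in deep cells had 365 UMIs in 6-month CCR2-DTR, 2 UMIs in 6-month WT, 406 UMIs in 1-month CCR2-DTR and 1 UMI in 1-month WT islets, so both genes were higher in the CCR2-DTR libraries. The 1-month WT library stood apart from the other 3 in several measures below. Summaries over libraries that change direction without it are given both ways.

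Of the 3 genes given to mark free and debris RNA, the pancreatic lipase gene Pnlip was seen in these shares of shallow barcodes: 30.4% in 6-month CCR2-DTR, 6.53% in 6-month WT, 8.49% in 1-month CCR2-DTR and 0.270% in 1-month WT islets. The carboxypeptidase gene Cpb1 had a UMI in these shares: 27% in 6-month CCR2-DTR, 4.15% in 6-month WT, 8.13% in 1-month CCR2-DTR and 0% in 1-month WT islets. The beta globin gene Hbb-bs had a UMI in these shares: 0.338% in 6-month CCR2-DTR, 2.67% in 6-month WT, 1.55% in 1-month CCR2-DTR and 1.35% in 1-month WT islets. For Cpb1 in 1-month WT, 0 of 371 barcodes allows an exact 95% upper limit of 0.989%. The enzyme genes were most frequent in the 6-month CCR2-DTR library, and Hbb-bs was found in few barcodes of any library. None of the 3 was seen in most barcodes of a library. Leaving out mt- genes, an insulin gene had the most UMIs in most barcodes of each library. Insulin genes were not the only ones seen in most barcodes. The glucagon gene Gcg had a UMI in 97.3 to 99.9% of the shallow barcodes of a library.

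**Figure D1:**
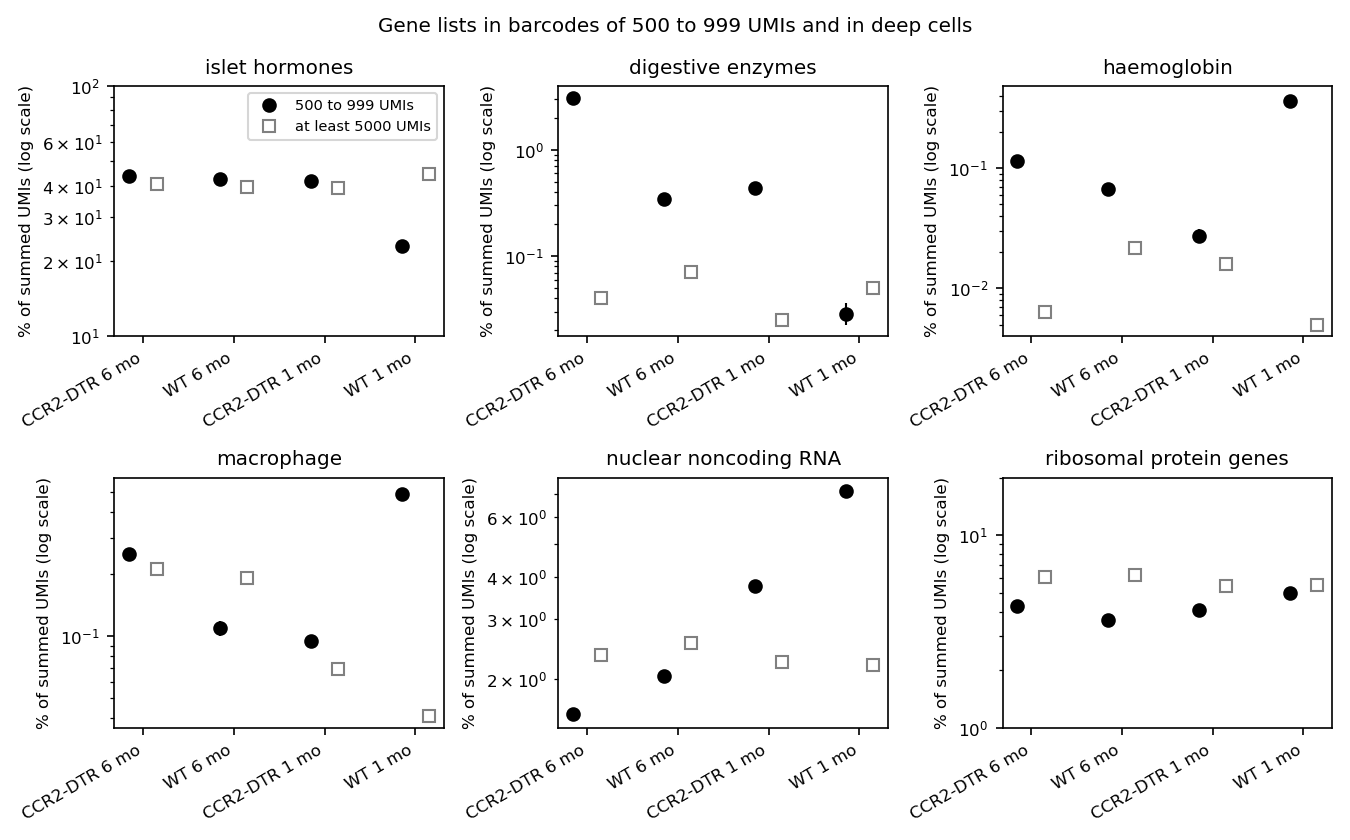
Percent of summed UMIs (log scale) of 6 gene lists in shallow barcodes of 500 or more and fewer than 1000 UMIs (filled circles, with exact 95% intervals mostly smaller than the circle) and in deep cells of at least 5000 UMIs (open squares), for each library. Digestive enzymes stood above deep cells in 3 libraries and below them in 1-month WT islets, at 0.0287% in shallow barcodes against 0.0505% in deep cells.

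Islet hormone RNA took about as large a share of UMIs in shallow barcodes as in deep cells in 3 libraries, and a smaller one in 1-month WT islets. The 8 hormone genes made up 43.6% in 6-month CCR2-DTR, 42.6% in 6-month WT, 41.8% in 1-month CCR2-DTR and 23% in 1-month WT islets. In deep cells they made up 40.5% in 6-month CCR2-DTR, 39.4% in 6-month WT, 39.2% in 1-month CCR2-DTR and 44.6% in 1-month WT islets. The mean log2 ratio of shallow barcodes over deep cells was -0.16 over 4 libraries and 0.10 without 1-month WT. As the mean of each barcode's percent over all 4 libraries it was 0.031, so its sign depends on the library and on the weighting. In shallow barcodes the CCR2-DTR over WT ratio of the list was 1.02 (95% interval 1.02 to 1.03) at 6 months and 1.82 (95% interval 1.80 to 1.84) at 1 month. The same ratios in deep cells were 1.03 and 0.880.

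Of the 8 hormone genes, 5 passed the test against deep cells, and those of beta cells did not. Gcg, which encodes the alpha cell hormone glucagon, fell in shallow barcodes relative to deep cells. It had these shares of shallow UMIs: 1.67% in 6-month CCR2-DTR, 1.69% in 6-month WT, 3.41% in 1-month CCR2-DTR and 2.85% in 1-month WT islets. In deep cells it made up 8.18% in 6-month CCR2-DTR, 10.2% in 6-month WT, 7.91% in 1-month CCR2-DTR and 6.47% in 1-month WT islets. Shallow and deep values do not overlap (log2 fold change -1.93, SE 0.338, adjusted p = 8.38e-06, edgeR quasi-likelihood test on sums per library, blocked by library, with Benjamini-Hochberg adjustment over all genes). The p-values measure the spread between these 4 libraries of pooled mice. The fit has 3 degrees of freedom of its own and a median of 177 from the spread shared across genes, so a gene's own spread weighs little in its p. Fold changes are fitted after scaling for composition, with a factor of 1.48 for the shallow sum of 1-month WT and 0.856 to 1 for the others, and differ from ratios of CPM there. Of the 15790 genes tested, 1.98% rose and 1.87% fell.

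Sst, the delta cell hormone somatostatin, had these shares of shallow UMIs: 0.303% in 6-month CCR2-DTR, 0.345% in 6-month WT, 0.283% in 1-month CCR2-DTR and 0.418% in 1-month WT islets. Its deep shares were 0.938% in 6-month CCR2-DTR, 1.26% in 6-month WT, 0.671% in 1-month CCR2-DTR and 0.682% in 1-month WT islets (log2 fold change -1.46, SE 0.275, adjusted p = 4.15e-05, edgeR). Ppy, the pancreatic polypeptide of gamma cells, made up 0.624% in 6-month CCR2-DTR, 0.515% in 6-month WT, 0.587% in 1-month CCR2-DTR and 0.811% in 1-month WT islets. Its deep shares were 1.86% in 6-month CCR2-DTR, 3.605% in 6-month WT, 1.06% in 1-month CCR2-DTR and 1.32% in 1-month WT islets (log2 fold change -1.58, SE 0.302, adjusted p = 6.12e-05, edgeR). The related gene Pyy was also lower in all 4 libraries (log2 fold change -1.60, SE 0.293, adjusted p = 2.13e-05, edgeR). The calls of Gcg, Sst, Ppy and Pyy passed as well with a robust prior, an edgeR setting added after the values were seen that lets a gene keep a spread far above the trend. Of the 5 hormone calls, 1 passed in every fit that left out 1 library, that of Sst, and DESeq2 called 3 of the 8 genes. Without 6-month CCR2-DTR the adjusted p of Gcg was 0.0789, and without 6-month WT those of Ppy and Pyy were 0.0910 and 0.0546 (edgeR). DESeq2 gave Ppy an adjusted p of 0.479.

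The beta cell genes did not pass the test. Ins2 had these shares of shallow UMIs: 27.6% in 6-month CCR2-DTR, 27% in 6-month WT, 24.9% in 1-month CCR2-DTR and 11.8% in 1-month WT islets. In deep cells Ins2 made up 18.3% in 6-month CCR2-DTR, 14% in 6-month WT, 17.5% in 1-month CCR2-DTR and 22.3% in 1-month WT islets (log2 fold change 0.22, SE 0.397, adjusted p = 0.859, edgeR). Ins1 had these shares of shallow UMIs: 9.89% in 6-month CCR2-DTR, 9.56% in 6-month WT, 7.81% in 1-month CCR2-DTR and 4.51% in 1-month WT islets. In deep cells Ins1 made up 6.96% in 6-month CCR2-DTR, 5.67% in 6-month WT, 6.89% in 1-month CCR2-DTR and 9.18% in 1-month WT islets (log2 fold change 0.04, SE 0.361, adjusted p = 0.976, edgeR). Both shares were higher in shallow barcodes in 3 libraries and lower in 1-month WT islets. Iapp, the gene of the beta cell peptide amylin, did not pass either (log2 fold change -0.16, SE 0.326, adjusted p = 0.881, edgeR). The ghrelin gene Ghrl in shallow barcodes had 0 UMIs in 6-month CCR2-DTR, 3 UMIs in 6-month WT, 46 UMIs in 1-month CCR2-DTR and 2 UMIs in 1-month WT islets. Its call (log2 fold change -1.30, SE 0.347, adjusted p = 0.0109, edgeR) was lost with the robust prior (adjusted p = 0.748, edgeR) and without 1-month WT (adjusted p = 0.939, edgeR). Over the list 5 of 8 genes fell and 0 rose, with a median log2 fold change of -1.38, against -0.10 over all genes tested.

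In 3 libraries nearly all shallow barcodes were led by insulin. Leaving out mt- genes, the shares in which Ins1 or Ins2 had the most UMIs were 98.1% in 6-month CCR2-DTR, 97.5% in 6-month WT, 94.9% in 1-month CCR2-DTR and 62.8% in 1-month WT islets. In deep cells the shares led by insulin were 45.6% in 6-month CCR2-DTR, 34.4% in 6-month WT, 47.3% in 1-month CCR2-DTR and 51.7% in 1-month WT islets. The shares of shallow barcodes led by Gcg were 0.450% in 6-month CCR2-DTR, 1.19% in 6-month WT, 3.56% in 1-month CCR2-DTR and 10.2% in 1-month WT islets. The shares of deep cells led by Gcg were 29.5% in 6-month CCR2-DTR, 32.6% in 6-month WT, 35.7% in 1-month CCR2-DTR and 32.7% in 1-month WT islets. Among shallow barcodes the 1-month WT library had the lowest share led by insulin and the highest led by Gcg.

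The insulin share of a shallow barcode had a median of 39.1% in 6-month CCR2-DTR, 39.3% in 6-month WT, 34.6% in 1-month CCR2-DTR and 15% in 1-month WT islets. The middle 90% of barcodes spanned 27.1 to 46.7% in 6-month CCR2-DTR and 21.6 to 46.9% in 6-month WT islets. At 1 month they spanned 15.3 to 43.4% in CCR2-DTR and 1.26 to 42.4% in WT islets. Median insulin shares of deep cells were 3.54% in 6-month CCR2-DTR, 2.18% in 6-month WT, 4.51% in 1-month CCR2-DTR and 23.8% in 1-month WT islets. Barcodes with under 5% insulin numbered 5 in 6-month CCR2-DTR, 6 in 6-month WT, 44 in 1-month CCR2-DTR and 53 in 1-month WT islets.

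**Figure D2:**
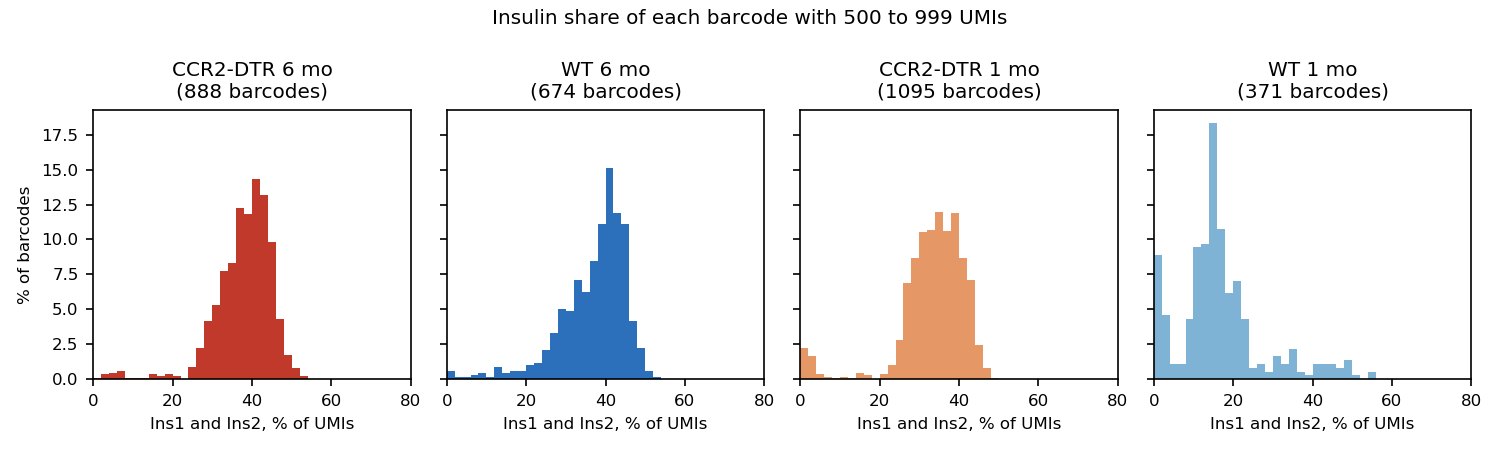
Percent of UMIs from Ins1 and Ins2 in each shallow barcode (x axis, bins 2 percentage points wide) against the percent of the library's shallow barcodes (y axis). The medians were 39.1% in 6-month CCR2-DTR, 39.3% in 6-month WT, 34.6% in 1-month CCR2-DTR and 15% in 1-month WT islets. The 1-month WT library peaks at a lower share and has 53 barcodes below 5%.

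The median number of hormone UMIs in a shallow barcode was set beside that in deep cells which should lack hormones. Endothelial cells line the islet capillaries and are not known to make islet hormones. Deep barcodes marked by endothelial genes held at least 10 UMIs of 14 genes such as Pecam1, Cdh5 and Plvap, and more than of each other non-endocrine marker list. They numbered 252 in 6-month CCR2-DTR, 228 in 6-month WT, 311 in 1-month CCR2-DTR and 268 in 1-month WT islets. The median count of hormone UMIs in shallow barcodes was 329 in 6-month CCR2-DTR, 345 in 6-month WT, 324 in 1-month CCR2-DTR and 130.0 in 1-month WT islets. In endothelial-marked barcodes the median was 266 in 6-month CCR2-DTR, 279.5 in 6-month WT, 303 in 1-month CCR2-DTR and 129 in 1-month WT islets. The 1-month WT library had the lowest median in both kinds of barcode. The mean per endothelial-marked barcode was far above its median, at 1468 in 6-month CCR2-DTR, 1039.6 in 6-month WT, 1387 in 1-month CCR2-DTR and 2523 in 1-month WT islets, so some of these barcodes held many hormone UMIs. Kept to those with hormones at no more than 10% of UMIs, a choice made after seeing the data that bounds the hormone count, the medians were 258 in 6-month CCR2-DTR, 273 in 6-month WT, 282 in 1-month CCR2-DTR and 111 in 1-month WT islets. Doublets were not removed from either kind.

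Across bins of UMI total the median hormone count changed little up to 5000 UMIs. At 2000 to fewer than 5000 UMIs it was 371 in 6-month CCR2-DTR, 379 in 6-month WT, 321 in 1-month CCR2-DTR and 130.0 in 1-month WT islets. At 10000 to fewer than 20000 UMIs it was 4539 in 6-month CCR2-DTR, 4295 in 6-month WT, 6113 in 1-month CCR2-DTR and 7242 in 1-month WT islets. In the bin between them the medians were 366 in 6-month CCR2-DTR, 312 in 6-month WT, 2105 in 1-month CCR2-DTR and 2112 in 1-month WT islets, so the count was already higher there in the 1-month libraries and not in the 6-month ones.

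The mix of hormones within the hormone UMIs also differed from that of deep cells. Gcg had these shares of hormone UMIs in shallow barcodes: 3.82% in 6-month CCR2-DTR, 3.96% in 6-month WT, 8.14% in 1-month CCR2-DTR and 12.4% in 1-month WT islets. Over all deep cells it made up 20.2% in 6-month CCR2-DTR, 25.9% in 6-month WT, 20.2% in 1-month CCR2-DTR and 14.5% in 1-month WT islets. In deep barcodes led by insulin it made up 0.996% in 6-month CCR2-DTR, 1.06% in 6-month WT, 1.80% in 1-month CCR2-DTR and 1.44% in 1-month WT islets. The share of hormone UMIs that would have to change gene to turn the shallow mix into that of insulin-led deep barcodes was 4.66% in 6-month CCR2-DTR, 5.30% in 6-month WT, 8.59% in 1-month CCR2-DTR and 18.3% in 1-month WT islets. For the mix of all deep cells the shares to change were 23.6% in 6-month CCR2-DTR, 37.1% in 6-month WT, 15.9% in 1-month CCR2-DTR and 3.13% in 1-month WT islets. For endothelial-marked deep barcodes, some of which held many hormone UMIs, they were 15.3% in 6-month CCR2-DTR and 35.5% in 6-month WT islets. At 1 month they were 14.0% in CCR2-DTR and 2.34% in WT islets. In 1-month WT islets the shallow mix was nearest to endothelial-marked barcodes, followed by all deep cells. Those 268 endothelial-marked barcodes held 676212 hormone UMIs, of which the 165 barcodes with hormones at no more than 10% held 20565. Most of the mix compared there thus came from the hormone-rich ones. In the other 3 libraries the shallow mix was nearest to insulin-led barcodes. Between the shallow mixes of 6-month CCR2-DTR and WT islets the difference was 0.486%, and at 1 month it was 10.5%.

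RNA of digestive enzymes varied more between the shallow barcodes of the 4 libraries than hormone RNA did. The list held 30 genes found in the files, among them the trypsinogens Prss2, Try4 and Try5, the chymotrypsinogen Ctrb1, elastases such as Cela2a, the lipase Pnlip and the carboxypeptidases Cpa1 and Cpb1. Acinar cells secrete these enzymes into the gut. The list had these shares of shallow UMIs: 3.07% in 6-month CCR2-DTR, 0.343% in 6-month WT, 0.434% in 1-month CCR2-DTR and 0.0287% in 1-month WT islets. In deep cells the list made up 0.0407% in 6-month CCR2-DTR, 0.0707% in 6-month WT, 0.0251% in 1-month CCR2-DTR and 0.0505% in 1-month WT islets. Summed shallow barcodes were above deep cells in 3 libraries and below them in 1-month WT islets. The deep 1-month WT sum holds 12 barcodes with over 5% enzymes, the highest at 68.1%. Insulin-led deep barcodes of that library held 0.00120%, below its shallow barcodes, so the direction there depends on which deep cells are summed. The mean log2 ratio over deep cells was 2.95, and 4.21 without 1-month WT.

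Among shallow barcodes the CCR2-DTR library was the higher at each age. The CCR2-DTR over WT ratio was 8.95 (95% interval 8.53 to 9.40) at 6 months and 15.1 (95% interval 12 to 19.2) at 1 month. At 1 month the log2 ratio moved with the UMI band, at 5.33 from 750 UMIs against 3.92 in all. Summed over all deep cells these ratios were below 1, at 0.576 at 6 months and 0.496 at 1 month. Insulin-led deep barcodes went the other way, with 0.0230% in CCR2-DTR and 0.00322% in WT at 6 months. At 1 month they held 0.0162% in CCR2-DTR and 0.00120% in WT islets. Endothelial-marked deep barcodes were also higher in CCR2-DTR, at 0.0605% against 0.00845% at 6 months and 0.0243% against 0.00201% at 1 month. The 6-month library was the higher in each genotype, with a 6 months over 1 month ratio of 7.09 (95% interval 6.84 to 7.34) in CCR2-DTR and 12 (95% interval 9.49 to 15.3) in WT shallow barcodes. The 4 ratios share libraries.

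Against deep cells, 26 of the 28 enzyme genes with enough counts were called higher and 0 lower, with a median log2 fold change of 3.85. With the robust prior 5 of 28 were called, and 4 of 28 were higher in all 4 libraries. DESeq2 called 9 of 28, and 24 were called in every fit that left out 1 library. Pnlip in shallow barcodes had 2059.9 CPM in 6-month CCR2-DTR, 226 CPM in 6-month WT, 195 CPM in 1-month CCR2-DTR and 3.83 CPM in 1-month WT islets (CPM scales a gene's UMIs to the sum of all UMIs). In deep cells Pnlip had 19.9 CPM in 6-month CCR2-DTR, 29.6 CPM in 6-month WT, 9.95 CPM in 1-month CCR2-DTR and 5.48 CPM in 1-month WT islets. Shallow and deep values overlap only through 1-month WT islets (log2 fold change 4.01, SE 0.351, adjusted p = 7.98e-20, edgeR). With the robust prior the adjusted p of Pnlip was 0.387 (edgeR). Cpb1 in shallow barcodes had 1558 CPM in 6-month CCR2-DTR, 119 CPM in 6-month WT, 173 CPM in 1-month CCR2-DTR and 0 CPM in 1-month WT islets. In deep cells Cpb1 had 14.8 CPM in 6-month CCR2-DTR, 16.7 CPM in 6-month WT, 6.84 CPM in 1-month CCR2-DTR and 8.31 CPM in 1-month WT islets (log2 fold change 4.02, SE 0.369, adjusted p = 1.70e-18, edgeR), and its adjusted p with the robust prior was 0.443.

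Ctrb1, chymotrypsinogen B, is among the 5 enzyme genes named by the rule. Its shallow values were 5108 CPM in 6-month CCR2-DTR, 633 CPM in 6-month WT, 815 CPM in 1-month CCR2-DTR and 68.9 CPM in 1-month WT islets. Deep cells had 67.2 CPM in 6-month CCR2-DTR, 124 CPM in 6-month WT, 41.9 CPM in 1-month CCR2-DTR and 47.6 CPM in 1-month WT islets (log2 fold change 3.42, SE 0.368, adjusted p = 3.53e-14, edgeR, with 0.480 for the adjusted p under the robust prior). The elastase gene Cela2a in shallow barcodes had 2091 CPM in 6-month CCR2-DTR, 294 CPM in 6-month WT, 172 CPM in 1-month CCR2-DTR and 7.66 CPM in 1-month WT islets. Deep cells of the same libraries had 22.3 CPM in 6-month CCR2-DTR, 37 CPM in 6-month WT, 8.76 CPM in 1-month CCR2-DTR and 8.34 CPM in 1-month WT islets (log2 fold change 3.91, SE 0.350, adjusted p = 2.79e-19, edgeR, with 0.396 under the robust prior). The trypsinogen gene Prss2 in shallow barcodes had 2657 CPM in 6-month CCR2-DTR, 305 CPM in 6-month WT, 428 CPM in 1-month CCR2-DTR and 46 CPM in 1-month WT islets, and 2210010C04Rik had 2382 CPM in 6-month CCR2-DTR, 209 CPM in 6-month WT, 295 CPM in 1-month CCR2-DTR and 0 CPM in 1-month WT islets. For all 4 of these genes the 6-month CCR2-DTR library was the highest and the 1-month WT library the lowest. Trypsinogen genes are close copies of each other, so the split of UMIs among them is uncertain.

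Enzyme UMIs were spread over most shallow barcodes in both CCR2-DTR libraries and less so in WT. The 10 richest barcodes held 15.5% of them in 6-month CCR2-DTR, 46.4% in 6-month WT, 21.4% in 1-month CCR2-DTR and 82.7% in 1-month WT islets. With every barcode thinned to 500 UMIs, the shares of shallow barcodes with a UMI of the list were 93.4% in 6-month CCR2-DTR, 38.7% in 6-month WT, 59.8% in 1-month CCR2-DTR and 5.39% in 1-month WT islets. Deep cells thinned alike gave 16% in 6-month CCR2-DTR, 4.34% in 6-month WT, 9.90% in 1-month CCR2-DTR and 2.08% in 1-month WT islets. Without thinning, the shares of shallow barcodes were 97.4% in 6-month CCR2-DTR, 51.9% in 6-month WT, 73.7% in 1-month CCR2-DTR and 6.20% in 1-month WT islets. Deep endothelial-marked barcodes, which should lack these genes, gave 96.4% in 6-month CCR2-DTR, 49.6% in 6-month WT, 79.1% in 1-month CCR2-DTR and 17.2% in 1-month WT islets without thinning. Their median depths were 7132 UMIs in 6-month CCR2-DTR, 6948 UMIs in 6-month WT, 7969 UMIs in 1-month CCR2-DTR and 8509.5 UMIs in 1-month WT islets. The unthinned shares of both kinds lay near each other in 3 libraries and further apart in 1-month WT islets, although the endothelial-marked barcodes were far deeper.

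The mean number of enzyme UMIs per shallow barcode was 23.6 in 6-month CCR2-DTR, 2.71 in 6-month WT, 3.35 in 1-month CCR2-DTR and 0.202 in 1-month WT islets. Per endothelial-marked deep barcode it was 6.17 in 6-month CCR2-DTR, 0.803 in 6-month WT, 2.33 in 1-month CCR2-DTR and 0.224 in 1-month WT islets. Per insulin-led deep barcode it was 6.26 in 6-month CCR2-DTR, 0.946 in 6-month WT, 2.43 in 1-month CCR2-DTR and 0.226 in 1-month WT islets. The 3 kinds of barcode order the libraries alike, with 6-month CCR2-DTR highest, then 1-month CCR2-DTR, 6-month WT and 1-month WT. Medians per shallow barcode were 5 in 6-month CCR2-DTR, 1 in 6-month WT, 1 in 1-month CCR2-DTR and 0 in 1-month WT islets. Medians per endothelial-marked barcode were 5 in 6-month CCR2-DTR, 0 in 6-month WT, 1 in 1-month CCR2-DTR and 0 in 1-month WT islets.

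Some shallow barcodes were rich in the enzymes. Those with over 5% of UMIs from the list numbered 126 in 6-month CCR2-DTR, 12 in 6-month WT, 30 in 1-month CCR2-DTR and 1 in 1-month WT islets. Those with over 20% numbered 37 in 6-month CCR2-DTR and 0 in the other 3 libraries. The highest shares were 44% in 6-month CCR2-DTR, 17.4% in 6-month WT, 17.3% in 1-month CCR2-DTR and 8.73% in 1-month WT islets. In the 1-month WT library a single barcode held 51 of the 75 enzyme UMIs, so its level rests on few barcodes.

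**Figure D3:**
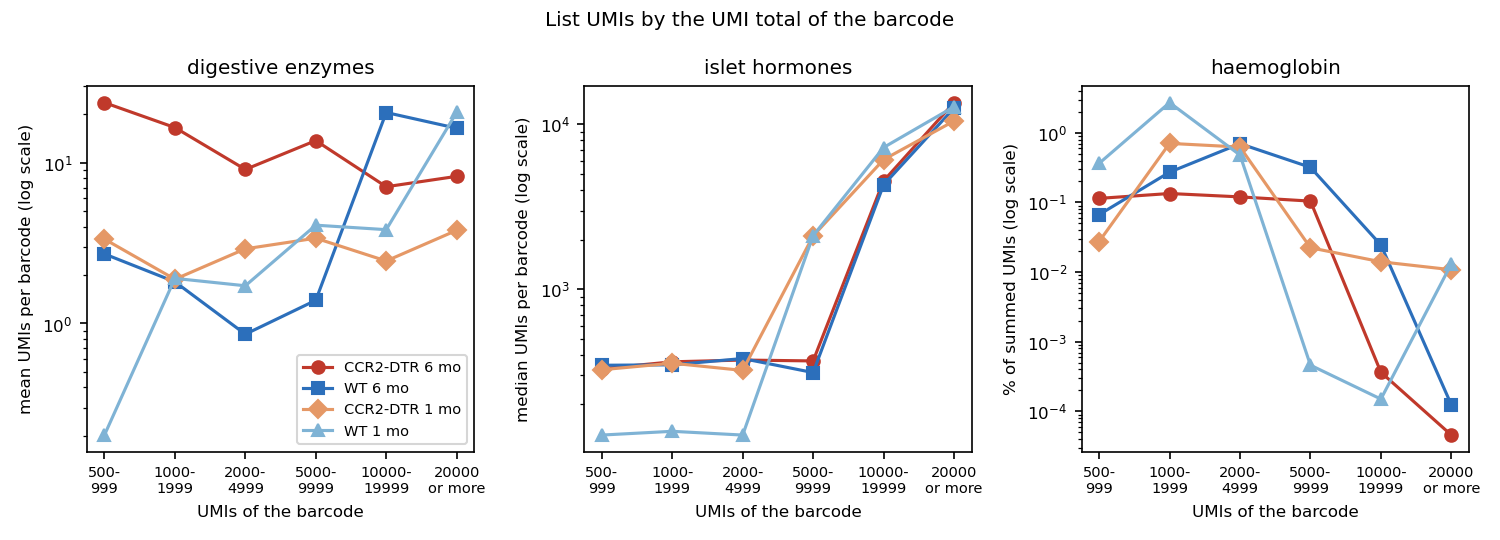
Mean digestive enzyme UMIs per barcode, median islet hormone UMIs per barcode and percent of summed UMIs from haemoglobin genes (log scales), in bins of the barcode's UMI total, with 1 line for each library. Each library's hormone median changes little over the first 3 bins, and its haemoglobin share is highest at 1000 to 2000 or at 2000 to 5000 UMIs.

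Reg genes encode secreted lectin-like proteins that acinar cells make, and their shallow levels were ordered like those of the enzymes at each age. They had these shares of shallow UMIs: 0.0653% in 6-month CCR2-DTR, 0.0153% in 6-month WT, 0.0372% in 1-month CCR2-DTR and 0.00689% in 1-month WT islets. Their deep shares were 0.00139% in 6-month CCR2-DTR, 0.00265% in 6-month WT, 0.00162% in 1-month CCR2-DTR and 0.00364% in 1-month WT islets. Of 5 tested, 4 were called higher and 0 lower, and 3 were called higher with the robust prior. Reg1 in shallow barcodes had 644 CPM in 6-month CCR2-DTR, 92.3 CPM in 6-month WT, 317 CPM in 1-month CCR2-DTR and 53.6 CPM in 1-month WT islets. The deep values were 12 CPM in 6-month CCR2-DTR, 14.3 CPM in 6-month WT, 14 CPM in 1-month CCR2-DTR and 30.7 CPM in 1-month WT islets (log2 fold change 3.63, SE 0.322, adjusted p = 1.93e-19, edgeR, with 0.400 under the robust prior). The shares of shallow barcodes with a Reg1 UMI were 24.8% in 6-month CCR2-DTR, 4.75% in 6-month WT, 15.1% in 1-month CCR2-DTR and 1.89% in 1-month WT islets.

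The mix of enzymes was compared in the 3 libraries with more than 1000 enzyme UMIs. Ctrb1 made up 16.6% of enzyme UMIs in 6-month CCR2-DTR, 18.4% in 6-month WT and 18.8% in 1-month CCR2-DTR shallow barcodes. Pnlip made up 6.70% in 6-month CCR2-DTR, 6.58% in 6-month WT and 4.50% in 1-month CCR2-DTR. Between the shallow and the endothelial-marked barcodes of a library, 10.1% of enzyme UMIs would have to change gene in 6-month CCR2-DTR and 10.7% in 1-month CCR2-DTR islets. In 6-month WT islets it was 25.9%, from 183 enzyme UMIs in endothelial-marked barcodes.

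Haemoglobin RNA, the main RNA of red blood cells and their precursors, was higher in sum in shallow barcodes of every library, but few barcodes held it. The 4 genes had these shares of shallow UMIs: 0.114% in 6-month CCR2-DTR, 0.0668% in 6-month WT, 0.0275% in 1-month CCR2-DTR and 0.364% in 1-month WT islets. In deep cells they made up 0.00634% in 6-month CCR2-DTR, 0.0219% in 6-month WT, 0.0159% in 1-month CCR2-DTR and 0.00498% in 1-month WT islets. Hbb-bs in shallow barcodes had 624 CPM in 6-month CCR2-DTR, 467 CPM in 6-month WT, 157 CPM in 1-month CCR2-DTR and 2409 CPM in 1-month WT islets. Among deep cells the values were 38.2 CPM in 6-month CCR2-DTR, 135 CPM in 6-month WT, 96.7 CPM in 1-month CCR2-DTR and 29.5 CPM in 1-month WT islets (log2 fold change 3.13, SE 0.321, adjusted p = 2.89e-15, edgeR). With the robust prior this call was lost (adjusted p = 0.434, edgeR).

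The alpha globin genes Hba-a1 (log2 fold change 3.72, SE 0.307, adjusted p = 1.11e-21, edgeR) and Hba-a2 (log2 fold change 3.63, SE 0.284, adjusted p = 2.59e-23, edgeR) were called higher too. Both lost the call with the robust prior, at adjusted p = 0.379 and 0.361 (edgeR). They are near-identical copies, so the split between them is uncertain. Hbb-bt, the second adult beta globin, did not pass (log2 fold change -0.24, SE 0.343, adjusted p = 0.811, edgeR). Its share of haemoglobin UMIs in shallow barcodes was 1.15% in 6-month CCR2-DTR, 1.41% in 6-month WT, 1.29% in 1-month CCR2-DTR and 1.26% in 1-month WT islets. In deep cells it was 16.7% in 6-month CCR2-DTR, 12.2% in 6-month WT, 13.5% in 1-month CCR2-DTR and 12.6% in 1-month WT islets.

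Haemoglobin was seen in this number of shallow barcodes: 4 in 6-month CCR2-DTR, 23 in 6-month WT, 26 in 1-month CCR2-DTR and 5 in 1-month WT islets. As shares these are 0.450% in 6-month CCR2-DTR, 3.41% in 6-month WT, 2.37% in 1-month CCR2-DTR and 1.35% in 1-month WT islets. The shares of deep cells with a haemoglobin UMI were 1.03% in 6-month CCR2-DTR, 4.42% in 6-month WT, 4.75% in 1-month CCR2-DTR and 2.32% in 1-month WT islets. The single richest shallow barcode held these shares of its library's haemoglobin UMIs: 50.8% in 6-month CCR2-DTR, 63.4% in 6-month WT, 31% in 1-month CCR2-DTR and 50.6% in 1-month WT islets. Barcodes with over 20% haemoglobin numbered 3 in 6-month CCR2-DTR, 1 in 6-month WT, 0 in 1-month CCR2-DTR and 2 in 1-month WT islets. Without such barcodes in either kind, an alternative added after the values were seen, the mean log2 ratio over deep cells was 0.62, against 3.19 with them.

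Comparisons of haemoglobin between libraries turned round with those barcodes. The CCR2-DTR over WT log2 ratio in shallow barcodes was 0.77 at 6 months and -3.73 at 1 month. Without barcodes of over 20% haemoglobin it was -7.38 at 6 months and 3.57 at 1 month. The 6-month value rests on 1 haemoglobin UMI left in CCR2-DTR and 130 in WT shallow barcodes, a ratio of 0.00599 (95% interval 0.00015 to 0.0340). At 1 month 232 UMIs were left in CCR2-DTR, against 6 in WT barcodes, a ratio of 11.9 (95% interval 5.38 to 32.7). A list of 9 other red cell genes, such as the haem synthesis gene Alas2 and the membrane gene Slc4a1, gave 0 calls among 6 tested by edgeR, with 0 at an unadjusted p under 0.05 and 0 by DESeq2. It had these shares of shallow UMIs: 0.00512% in 6-month CCR2-DTR, 0.00715% in 6-month WT, 0.00544% in 1-month CCR2-DTR and 0.00881% in 1-month WT islets. Its deep shares were 0.00499% in 6-month CCR2-DTR, 0.00553% in 6-month WT, 0.00552% in 1-month CCR2-DTR and 0.00466% in 1-month WT islets.

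**Figure D4:**
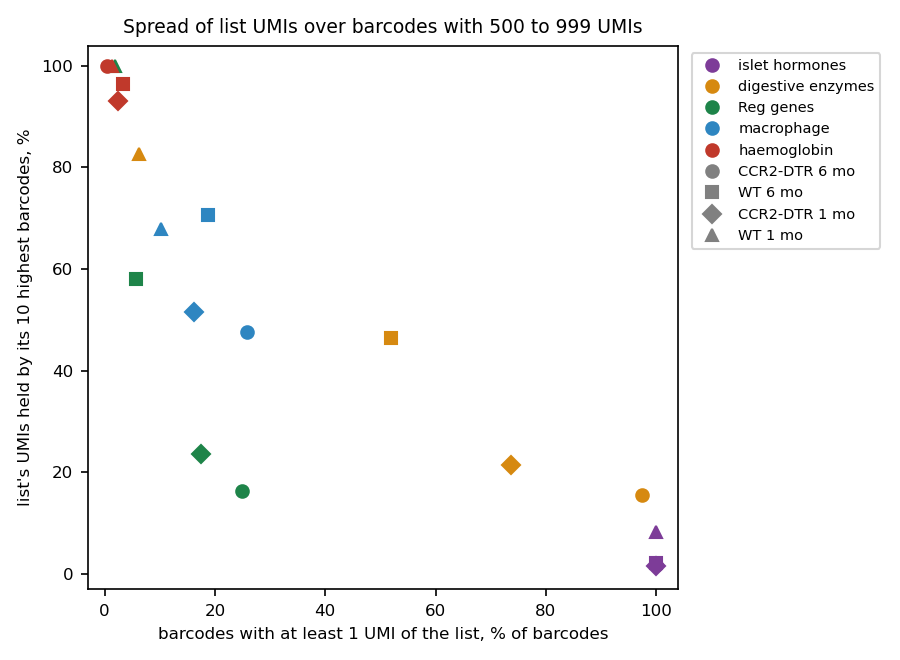
For 5 gene lists in each library, the percent of shallow barcodes with at least 1 UMI of the list (x axis) and the percent of the list's UMIs held by its 10 richest barcodes (y axis), with colours for lists and shapes for libraries. Haemoglobin lies at the upper left, with at least 93.1% in 10 barcodes. Digestive enzymes lie at the lower right in 6-month CCR2-DTR islets, with 15.5% in 10 barcodes, and at the upper left in 1-month WT islets, with 82.7%.

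In summed UMIs, macrophage genes stood furthest above deep cells in 1-month WT islets and below them in 6-month WT islets. Macrophages are the main resident immune cells of the islet, and CCR2 is known from monocytes that enter tissues. The 19 genes had these shares of shallow UMIs: 0.250% in 6-month CCR2-DTR, 0.109% in 6-month WT, 0.0947% in 1-month CCR2-DTR and 0.488% in 1-month WT islets. Deep cells gave 0.212% in 6-month CCR2-DTR, 0.191% in 6-month WT, 0.0691% in 1-month CCR2-DTR and 0.0409% in 1-month WT islets. The mean log2 ratio over deep cells was 0.86, and -0.04 without 1-month WT. As the mean of each barcode's percent it was -0.11 over all 4 libraries, so the sign turns with the weighting too. The test called 7 of 19 genes higher and 0 lower, with 1 called higher under the robust prior, 0 called by DESeq2 and 0 in every fit that left out 1 library.

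C1qa, a complement gene typical of resident macrophages, in shallow barcodes had 99.6 CPM in 6-month CCR2-DTR, 69.7 CPM in 6-month WT, 61.5 CPM in 1-month CCR2-DTR and 299 CPM in 1-month WT islets. Deep cells showed 129.7 CPM in 6-month CCR2-DTR, 114 CPM in 6-month WT, 88.2 CPM in 1-month CCR2-DTR and 63.6 CPM in 1-month WT islets. Cd74, the MHC class II invariant chain, in shallow barcodes had 804 CPM in 6-month CCR2-DTR, 309 CPM in 6-month WT, 234 CPM in 1-month CCR2-DTR and 1570.3 CPM in 1-month WT islets (log2 fold change 0.87, SE 0.273, adjusted p = 0.0475, edgeR). Deep cells had 614 CPM in 6-month CCR2-DTR, 488 CPM in 6-month WT, 174 CPM in 1-month CCR2-DTR and 96.2 CPM in 1-month WT islets. For both genes 1-month WT was the highest among shallow and the lowest among deep values. Tyrobp, a signalling adaptor of myeloid cells, was the 1 gene of the list named here that was higher in all 4 libraries (log2 fold change 1.32, SE 0.252, adjusted p = 5.97e-05, edgeR). The shallow over deep CPM ratio of Tyrobp was 19.9 in 1-month WT islets. It was 1.65 in 1-month CCR2-DTR, 1.17 in 6-month CCR2-DTR and 1.09 in 6-month WT islets, each with a counting interval that includes 1. Of the 19 genes, 2 were higher and 0 lower in all 4 libraries. Adgre1, the F4/80 gene, in shallow barcodes had 1 UMI in 6-month CCR2-DTR, 0 UMIs in 6-month WT, 4 UMIs in 1-month CCR2-DTR and 3 UMIs in 1-month WT islets.

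Of macrophage UMIs the 10 richest shallow barcodes held 47.5% in 6-month CCR2-DTR, 70.6% in 6-month WT, 51.5% in 1-month CCR2-DTR and 67.8% in 1-month WT islets. Barcodes with over 5% of UMIs from the list numbered 13 in 6-month CCR2-DTR, 5 in 6-month WT, 4 in 1-month CCR2-DTR and 17 in 1-month WT islets. Thinned to 500 UMIs, shallow barcodes with a macrophage UMI were 19.3% in 6-month CCR2-DTR, 14.5% in 6-month WT, 13.2% in 1-month CCR2-DTR and 9.16% in 1-month WT islets. Deep cells with a macrophage UMI were 9.95% in 6-month CCR2-DTR, 7.05% in 6-month WT, 7.24% in 1-month CCR2-DTR and 4.64% in 1-month WT islets. On this measure 1-month WT islets had the lowest share of shallow barcodes, unlike in the summed level. The CCR2-DTR over WT ratio of summed levels in shallow barcodes was 2.29 (95% interval 2.08 to 2.52) at 6 months and 0.194 (95% interval 0.177 to 0.212) at 1 month. In deep cells the ratio was 1.11 at 6 months and 1.69 at 1 month.

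Immunoglobulin transcripts, made by B cells and plasma cells, were frequent in 1 library. Igkc, the kappa light chain constant gene, in shallow barcodes had 1534 UMIs in 6-month CCR2-DTR, 1 UMI in 6-month WT, 5 UMIs in 1-month CCR2-DTR and 0 UMIs in 1-month WT islets. Its deep UMIs were 124286 in 6-month CCR2-DTR, 109 in 6-month WT, 8624 in 1-month CCR2-DTR and 78 in 1-month WT islets. The shallow barcodes with an Igkc UMI numbered 88 in 6-month CCR2-DTR, 1 in 6-month WT, 5 in 1-month CCR2-DTR and 0 in 1-month WT islets. The 10 richest barcodes held 73.5% of its UMIs in 6-month CCR2-DTR islets. Jchain, which joins immunoglobulin units, in shallow barcodes had 125 UMIs in 6-month CCR2-DTR, 0 UMIs in 6-month WT, 1 UMI in 1-month CCR2-DTR and 0 UMIs in 1-month WT islets. The B cell receptor gene Cd79a in shallow barcodes had 10 UMIs in 6-month CCR2-DTR, 5 UMIs in 6-month WT, 4 UMIs in 1-month CCR2-DTR and 4 UMIs in 1-month WT islets. Of the 7 B cell genes tested, 2 fell and 0 rose, 1 of them in every fit that left out 1 library, and DESeq2 called 0.

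In summed UMIs, RNAs retained in the nucleus stood above deep cells at 1 month and below them at 6 months. The list of 10 nuclear noncoding RNAs had these shares of shallow UMIs: 1.59% in 6-month CCR2-DTR, 2.05% in 6-month WT, 3.75% in 1-month CCR2-DTR and 7.15% in 1-month WT islets. Deep cells held 2.36% in 6-month CCR2-DTR, 2.55% in 6-month WT, 2.25% in 1-month CCR2-DTR and 2.20% in 1-month WT islets. Malat1, an abundant nuclear long noncoding RNA, had these shares of shallow UMIs: 1.33% in 6-month CCR2-DTR, 1.74% in 6-month WT, 3.01% in 1-month CCR2-DTR and 5.84% in 1-month WT islets. In deep cells Malat1 made up 1.87% in 6-month CCR2-DTR, 2.06% in 6-month WT, 1.84% in 1-month CCR2-DTR and 1.80% in 1-month WT islets and did not pass the test (log2 fold change 0.32, SE 0.307, adjusted p = 0.677, edgeR). By the median over barcodes, Malat1 in 1-month CCR2-DTR islets was lower in shallow barcodes, at 1.55% against 1.84% in deep cells, unlike the sum. In 1-month WT islets the medians were 3.78% and 1.84%. At 6 months they were 1.02% and 1.84% in CCR2-DTR and 1.30% and 2.03% in WT islets. The shares of shallow barcodes led by Malat1 were 0.225% in 6-month CCR2-DTR, 1.04% in 6-month WT, 0.913% in 1-month CCR2-DTR and 20.8% in 1-month WT islets. Meg3, an imprinted noncoding RNA, in shallow barcodes had 1104 CPM in 6-month CCR2-DTR, 1354 CPM in 6-month WT, 3491 CPM in 1-month CCR2-DTR and 5818 CPM in 1-month WT islets. Deep cells of the same libraries had 2475 CPM in 6-month CCR2-DTR, 2367 CPM in 6-month WT, 2126 CPM in 1-month CCR2-DTR and 2068 CPM in 1-month WT islets. Over the list 2 of 10 genes were called higher and 1 lower, and DESeq2 called 0. The mean log2 ratio over deep cells was 0.39, and -0.05 without 1-month WT.

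The median number of genes in shallow barcodes at 500 UMIs was 206 in 6-month CCR2-DTR, 204 in 6-month WT, 229 in 1-month CCR2-DTR and 290 in 1-month WT islets. In deep cells at 500 UMIs it was 246 in 6-month CCR2-DTR, 259 in 6-month WT, 254 in 1-month CCR2-DTR and 239 in 1-month WT islets. The 1-month WT library was the 1 library in which shallow barcodes showed more genes than deep cells at equal depth.

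Ribosomal protein genes, which make up much of the messenger RNA of the cytoplasm, had a median log2 fold change of -0.58 over 80 genes tested, against -0.10 for all genes. The test called 9 lower and 0 higher, or 26 lower with the robust prior, and 72 were lower in all 4 libraries. Of these 9, 0 passed in every fit that left out 1 library, and DESeq2 called 28 genes of the list. They had these shares of shallow UMIs: 4.30% in 6-month CCR2-DTR, 3.63% in 6-month WT, 4.09% in 1-month CCR2-DTR and 5.03% in 1-month WT islets. In deep cells they held 6.10% in 6-month CCR2-DTR, 6.26% in 6-month WT, 5.43% in 1-month CCR2-DTR and 5.54% in 1-month WT islets. Rps18, of the small subunit, gave a log2 fold change of -0.90 with an SE of 0.231 and an adjusted p of 0.00700 (edgeR). Rpl14, of the large subunit, gave a log2 fold change of -0.85 with an SE of 0.233 and an adjusted p of 0.0148 (edgeR).

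Of 18 immediate early and heat shock genes, which respond quickly to stress, 10 fell and 0 rose, with 2 falling in every fit that left out 1 library and 4 called by DESeq2. Jun and Fos, which encode the AP-1 transcription factor, gave log2 fold changes of -1.20 and -1.17 (adjusted p = 1.12e-04 and 1.61e-04, edgeR). The heat shock chaperone gene Hspa1a gave -1.08 (adjusted p = 3.35e-04, edgeR). Of 17 secretory granule genes, 3 fell and 0 rose, namely Gnas (-1.09), Pcsk1n (-0.91) and Scg5 (-0.88), given as log2 fold changes. Of these 3, 0 passed in every fit that left out 1 library, and DESeq2 called 3 genes of the list. The 95 nuclear genes of oxidative phosphorylation gave 2 higher and 2 lower calls. The 16 chaperones of the endoplasmic reticulum gave 0 of each by edgeR, with 3 at an unadjusted p under 0.05 and 0 by DESeq2.

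Gm42418, a predicted gene that overlaps the ribosomal RNA repeat, was outside the naming rule and is named after its values were seen. It had these shares of shallow UMIs: 4.78% in 6-month CCR2-DTR, 5.66% in 6-month WT, 1.17% in 1-month CCR2-DTR and 1.011% in 1-month WT islets. Deep cells held 0.941% in 6-month CCR2-DTR, 1.06% in 6-month WT, 0.730% in 1-month CCR2-DTR and 0.595% in 1-month WT islets (log2 fold change 1.46, SE 0.334, adjusted p = 0.00149, edgeR). With the robust prior the call was lost (adjusted p = 0.201, edgeR). Both 6-month libraries were high and both 1-month libraries low in shallow barcodes. AY036118, a noncoding gene also known to collect ribosomal RNA reads, had these shares of shallow UMIs: 0.266% in 6-month CCR2-DTR, 0.212% in 6-month WT, 0.0967% in 1-month CCR2-DTR and 0.0701% in 1-month WT islets. Its deep shares were 0.0517% in 6-month CCR2-DTR, 0.0577% in 6-month WT, 0.0396% in 1-month CCR2-DTR and 0.0280% in 1-month WT islets. Lars2, a mitochondrial leucyl-tRNA synthetase, in shallow barcodes had 224 CPM in 6-month CCR2-DTR, 281 CPM in 6-month WT, 59.2 CPM in 1-month CCR2-DTR and 65.1 CPM in 1-month WT islets. The deep values were 52.8 CPM in 6-month CCR2-DTR, 88.4 CPM in 6-month WT, 35.7 CPM in 1-month CCR2-DTR and 31.2 CPM in 1-month WT islets (log2 fold change 1.39, SE 0.223, adjusted p = 7.42e-07, edgeR). All 3 were higher in the 6-month than in the 1-month shallow barcodes of each genotype.

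Genes of vascular and stromal cells were among those called higher, with the same direction in all 4 libraries as the naming rule required. Rgs5, a regulator of G protein signalling that marks pericytes, in shallow barcodes had 353 CPM in 6-month CCR2-DTR, 369 CPM in 6-month WT, 171 CPM in 1-month CCR2-DTR and 179 CPM in 1-month WT islets, here without mt- genes. Among deep cells the values were 35.5 CPM in 6-month CCR2-DTR, 34.8 CPM in 6-month WT, 53.5 CPM in 1-month CCR2-DTR and 23.9 CPM in 1-month WT islets. The values do not overlap (log2 fold change 2.74, SE 0.236, adjusted p = 3.01e-20, edgeR), and the call passed with the robust prior (adjusted p = 1.20e-29, edgeR). The shallow barcodes with an Rgs5 UMI numbered 34 in 6-month CCR2-DTR, 16 in 6-month WT, 34 in 1-month CCR2-DTR and 10 in 1-month WT islets. Mgp, the matrix Gla protein (log2 fold change 1.64, SE 0.213, adjusted p = 3.20e-10, edgeR), and Ifitm3, an interferon-induced membrane protein (log2 fold change 1.39, SE 0.203, adjusted p = 3.02e-08, edgeR), rose too. Ly6c1 and Ly6a, surface proteins of endothelial and other cells, gave log2 fold changes of 1.41 and 1.27. The matrix glycoprotein Sparc and the endothelial sialomucin Emcn gave 1.16 and 1.10, and in 6-month WT islets alone their log2 ratios were 0.02 and 0.02. The calls of these 7 genes passed with the robust prior. Without 1-month CCR2-DTR the adjusted p was 0.0800 for Sparc and 0.0545 for Emcn (edgeR), and the other 5 passed in every fit that left out 1 library.

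By list, 4 of 14 endothelial, 4 of 12 mesenchymal and 4 of 7 Schwann cell genes rose, and 0 fell in each. Those that rose in every fit that left out 1 library were 0 endothelial, 2 mesenchymal and 2 Schwann cell genes, and DESeq2 called 2, 3 and 4 in the same order. The mesenchymal genes that rose were Rgs5, the smooth muscle genes Acta2 (1.85) and Tagln (1.72), and the decorin gene Dcn (1.16), as log2 fold changes. Mesenchymal genes had these shares of shallow UMIs: 0.0545% in 6-month CCR2-DTR, 0.0424% in 6-month WT, 0.0489% in 1-month CCR2-DTR and 0.0398% in 1-month WT islets. Their deep shares were 0.0157% in 6-month CCR2-DTR, 0.00933% in 6-month WT, 0.0209% in 1-month CCR2-DTR and 0.00845% in 1-month WT islets, lower in every library. Endothelial genes had these shares of shallow UMIs: 0.0693% in 6-month CCR2-DTR, 0.0567% in 6-month WT, 0.0822% in 1-month CCR2-DTR and 0.199% in 1-month WT islets. Their deep shares were 0.0640% in 6-month CCR2-DTR, 0.0794% in 6-month WT, 0.0517% in 1-month CCR2-DTR and 0.0334% in 1-month WT islets, so shallow barcodes were higher in 3 libraries and lower in 6-month WT islets. Of the Schwann cell genes, the small heat shock protein gene Cryab rose, with a log2 fold change of 2.15.

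The genes that fell most included 4 hormones (Gcg, Pyy, Ppy and Sst). Ttr, the carrier transthyretin, which alpha cells express strongly, fell (log2 fold change -1.78, SE 0.279, adjusted p = 3.25e-07, edgeR), as did the retinol carrier gene Rbp4 and the glutathione peroxidase gene Gpx3 with log2 fold changes of -1.43 and -1.68. Castor2, a regulator of mTORC1 signalling, Etv1, an ETS transcription factor, Pappa2, a protease, and Spint2, a protease inhibitor, gave -1.77, -1.77, -1.49 and -1.25. All were lower in each of the 4 libraries, as the rule required. Of 14 islet transcription factors, 3 fell and 1 rose, of which 2 and 0 did so in every fit that left out 1 library. Hhex, known from delta cells, fell with a log2 fold change of -1.45, and Mlxipl, a glucose-responsive factor, rose with one of 0.99.

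Of 9 ductal genes, 1 rose and 3 fell, of which 1 and 1 did so in every fit that left out 1 library, and with the robust prior 0 rose. T cell, neutrophil, platelet and adipocyte lists gave 0 calls among 10, 1, 4 and 1 genes tested by edgeR, and DESeq2 called 0 in each as well. With the robust prior edgeR called the 1 adipocyte gene higher. At an unadjusted p under 0.05 there were 0, 0, 0 and 1 in the same order.

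**Figure D5:**
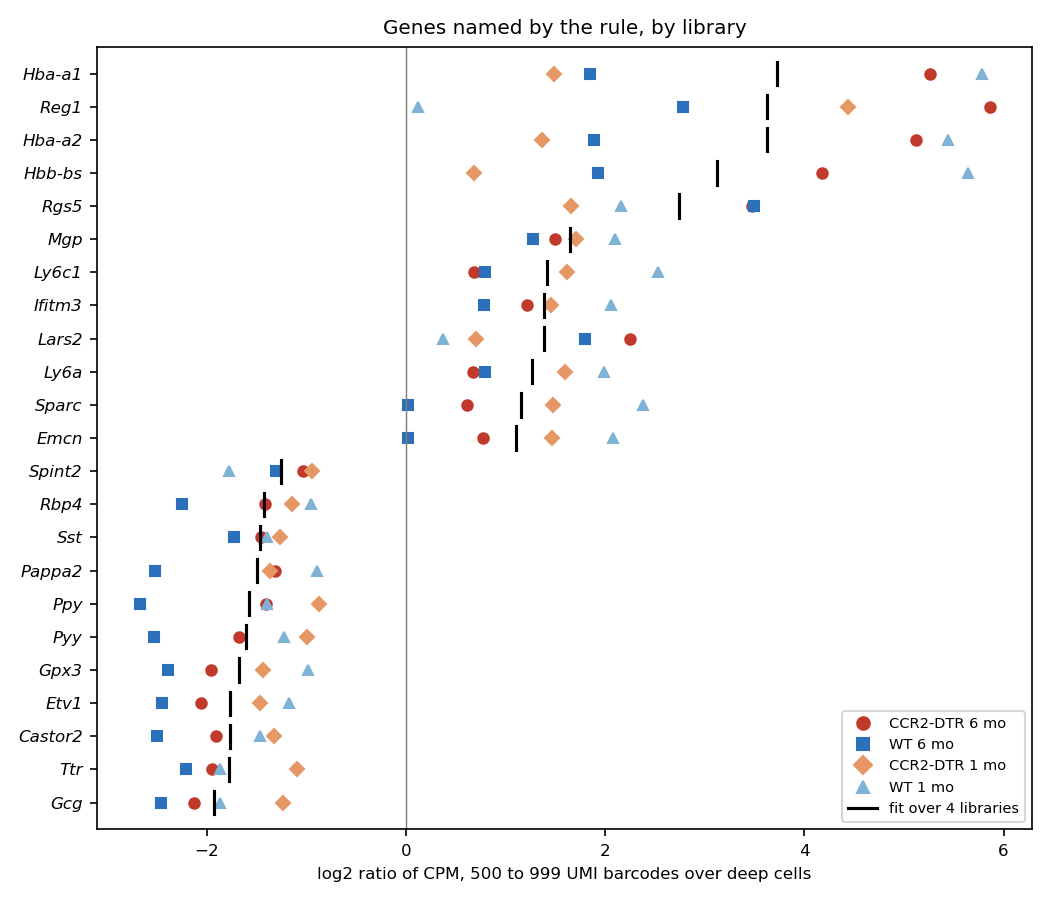
Log2 ratio of CPM in shallow barcodes over deep cells of the same library, after scaling for composition, for 23 genes named by the rule, with 1 symbol for each library and a bar at the value fitted over 4 libraries. The globin genes and Reg1 span more than 3 log2 units between libraries, and the genes at the lower end, led by Gcg at -1.93, lie below 0 in every library.

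Between libraries, single genes were compared where they reached 50 CPM in 1 of both shallow sums and 20 UMIs over both. They were counted as past 2-fold where the whole 95% counting interval lay beyond 2-fold. For CCR2-DTR over WT at 6 months, 35 of 2238 genes were higher (1.56%) and 2 lower (0.0894%). At 1 month, 23 of 3188 were higher (0.721%) and 58 lower (1.82%). For 6 months over 1 month in CCR2-DTR, 42 of 2449 were higher (1.72%) and 47 lower (1.92%). In WT, 24 of 3200 were higher (0.75%) and 233 lower (7.28%). The median log2 ratio over genes was -0.07 and -0.48 for genotype at 6 months and at 1 month, and -0.24 and -0.58 for age in CCR2-DTR and in WT. The hormone share of the total differs most where 1-month WT takes part. With hormone and mt- genes left out of the total, 84 genes were lower at 6 months in WT, and 21 lower in CCR2-DTR at 1 month.

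Digestive enzymes made up most of the genes that were higher. They were 23 of the 35 for CCR2-DTR over WT at 6 months and 18 of the 23 at 1 month, from 24 and 18 enzyme genes compared. For 6 months over 1 month they were 23 of 42 in CCR2-DTR and 16 of 24 in WT, from 24 and 17 enzyme genes compared. A gene could reach 50 CPM through the higher library alone, so these counts are a description. At 6 months the CCR2-DTR shallow barcodes held 1064 UMIs of Cpb1 and the WT ones 63, a ratio of 13.1 (95% interval 10.2 to 17.2). At 1 month Cpb1 had 146 UMIs in CCR2-DTR islets, against 0 in WT. That is at least 15-fold higher, taking 3 counts as the floor of the WT library. In deep cells the Cpb1 ratio was 0.886 at 6 months and 0.823 at 1 month. The bile salt lipase gene Cel had a ratio of 17.8 at 6 months (95% interval 10.6 to 32.1). The ribonuclease gene Rnase1 and the chymotrypsin-like gene Ctrl were at least 13.2-fold and 13-fold higher in CCR2-DTR at 1 month by the same floor.

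In 6-month CCR2-DTR shallow barcodes Igha, the immunoglobulin A heavy chain gene, had 295 UMIs, against 0 in WT, and was at least 76.5-fold higher. Jchain was at least 32.4-fold and the heavy chain gene Ighm at least 11.9-fold higher than in WT. Deep cells of 6-month CCR2-DTR islets were higher too. They held 5636 UMIs of Igha against 0 in WT, 9653 of Jchain against 12 and 40567 of Ighm against 238. Esm1, a secreted endothelial proteoglycan, was lower in CCR2-DTR at 6 months, with 50 UMIs against 121 in WT.

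At 1 month S100g, a calcium-binding protein known from intestine, had 0 UMIs in the CCR2-DTR shallow barcodes, against 25 in the WT ones. A single WT barcode held 20 of them. The intestinal apolipoprotein gene Apoa4 had 0 UMIs in CCR2-DTR islets, against 21 in WT, of which a single barcode held 20. Deep cells of the 1-month WT library held 2476 UMIs of S100g and 828 of Apoa4. The MHC class II gene H2-Ab1 had 34 UMIs in the CCR2-DTR shallow barcodes, against 91 in the WT ones, a ratio of 0.115 (95% interval 0.0755 to 0.173). In deep cells the H2-Ab1 ratio was 1.78.

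Among the named genes several were lower at 6 months than at 1 month. In CCR2-DTR shallow barcodes Stmn1, a regulator of microtubules, had 7 UMIs at 6 months and 78 at 1 month, a ratio of 0.111 (95% interval 0.0432 to 0.240). Its deep ratio was 0.0925. Vip, the vasoactive intestinal peptide gene, had 6 UMIs at 6 months and 108 at 1 month. Sparc was lower at 6 months in both genotypes, at ratios of 0.202 in CCR2-DTR and 0.111 in WT shallow barcodes. Deep cells gave Sparc ratios of 0.418 in CCR2-DTR and 1.02 in WT. Cd52, a surface glycoprotein of lymphocytes, had 2 UMIs at 6 months and 29 at 1 month in WT shallow barcodes. In WT deep cells it went the other way, at a ratio of 2.91 (95% interval 2.64 to 3.20).

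Barcodes at the edges of the rule are given as a description. Within 100 UMIs below the limit of 1000, hormone genes made up 38.6% in 6-month CCR2-DTR, 36.2% in 6-month WT, 36.4% in 1-month CCR2-DTR and 21.6% in 1-month WT islets. Within 100 UMIs above it they made up 38.3% in 6-month CCR2-DTR, 34.6% in 6-month WT, 33% in 1-month CCR2-DTR and 20.8% in 1-month WT islets. Digestive enzymes made up 2.83% in 6-month CCR2-DTR, 0.321% in 6-month WT, 0.212% in 1-month CCR2-DTR and 0.00979% in 1-month WT islets below the limit. Above it they made up 2.94% in 6-month CCR2-DTR, 0.0532% in 6-month WT, 0.190% in 1-month CCR2-DTR and 0.00841% in 1-month WT islets. Haemoglobin genes made up 0.286% in 6-month CCR2-DTR, 0.231% in 6-month WT, 0.0367% in 1-month CCR2-DTR and 0.00196% in 1-month WT islets below the limit. Above it they made up 0.000866% in 6-month CCR2-DTR, 0.318% in 6-month WT, 0.862% in 1-month CCR2-DTR and 4.43% in 1-month WT islets. Barcodes with 20 to 25% mt- genes had hormone shares of 36.3% in 6-month CCR2-DTR, 32.7% in 6-month WT, 37.6% in 1-month CCR2-DTR and 19.6% in 1-month WT islets.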

How the data were processed

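The data are 4 droplet libraries, 1 for each genotype and age, with 32285 genes. The deposited values are whole-number UMI counts per gene and cell barcode, made with Cell Ranger 5.0.1 on mm10, per the submitters' processing notes. The sources used here name neither the annotation release nor whether introns were counted. Starting from these counts, barcodes were selected by UMI total and mt- share, and counts were summed per library over the shallow barcodes and over deep cells. The sums were compared with edgeR 4.0.16 (quasi-likelihood test, TMM scaling, library as a block, R 4.3.3) without the 13 mt- genes, at an adjusted p under 0.05. Genes of low count were filtered with filterByExpr. DESeq2 1.42.0 was an alternative. Summed shallow counts ran over 261101 to 845000 UMIs per library. Levels between libraries were compared as ratios with exact 95% Poisson intervals, which cover counting error only. The fit was tested on simulated data.

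Named genes were the 12 highest and 12 lowest fold changes among called genes with 1 direction in all 4 libraries and at least 100 CPM, without mt- and predicted genes. Hormone and haemoglobin genes and 5 enzymes were named as well, and between libraries the 6 highest and 6 lowest genes. Members and lists were chosen with earlier results of these data known. Doublets were not removed and barcodes were not clustered. Members of lists named with the list's count were picked after their values were seen. Alternatives changed the deep cells, the UMI band, the mt- limit, the total, the filter, the block and the libraries. Some genes that the rule or the lists hold are not reported here.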

Additional observations from a re-analysis of the deposited data

Results flagged for a closer look

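The CCR2-DTR over WT ratio in shallow barcodes was compared between the 2 ages for 22 gene lists. In 6 of 22 it ran opposite ways with counting intervals that left out 1 at both ages. Opposite directions with an interval that includes 1 at either age were not counted. Each age has 1 library of each genotype, and the difference between the ages was not tested. Haemoglobin had a log2 ratio of 0.77 at 6 months and -3.73 at 1 month, and both signs turned without barcodes of over 20% haemoglobin. Macrophage genes had 1.20 at 6 months and -2.37 at 1 month. Endothelial genes had 0.29 at 6 months and -1.28 at 1 month. Immediate early and heat shock genes had 0.34 at 6 months and -0.38 at 1 month. Secretory granule genes had -0.17 at 6 months and 0.33 at 1 month. Ribosomal protein genes had 0.24 at 6 months and -0.30 at 1 month. At 1 month the hormone share of shallow UMIs also differed, at 41.8% in CCR2-DTR and 23% in WT islets, and its part in these ratios was not tested.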

How the results depend on the processing

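Against deep cells, 313 genes were called higher and 296 lower. Without the library block, which pairs the shallow and deep sums of a library, 154 were higher and 154 lower. With deep cells of at least 1000 UMIs and 500 genes, and mt- genes at most 15%, 206 were higher. With deep cells of at least 10000 UMIs 503 were higher. DESeq2 called 269 higher and 133 lower. Leaving out each library gave 128 to 292 higher and 113 to 321 lower calls. The lowest of both counts came without 1-month CCR2-DTR, and 165 and 133 were lower without 6-month CCR2-DTR and without 6-month WT. The robust prior gave 307 higher and 345 lower calls, but lost 14 calls among 41 named genes. These 41 include genes that were not called in the main fit and so had no call to lose. The other settings lost at most 11 of the 41, and no named gene that was called changed direction under any setting run. Sign changes of named genes that were not called, such as the insulin genes and Iapp, were not counted. No paired analysis was possible between libraries because each group is 1 library and the labels give no shared replicate numbers.

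For mean log2 ratios over deep cells, leaving out each library gave -0.25 to 0.10 for hormones, 1.86 to 4.21 for digestive enzymes, 2.19 to 3.99 for haemoglobin, -0.04 to 1.42 for macrophage genes, -0.05 to 0.71 for nuclear noncoding RNA and -0.56 to -0.35 for ribosomal protein genes. Without barcodes of over 20% haemoglobin, that of haemoglobin was 0.62. With deep cells of at least 1000 UMIs and 500 genes, and mt- genes at most 15%, that of haemoglobin was 4.84. As the mean of each barcode's percent, that of macrophage genes was -0.11 and that of hormones 0.031, both of the opposite sign to the summed values.

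Between libraries, values are log2 ratios of list levels, and the cause of each change was not tested. Hormones for CCR2-DTR over WT at 6 months (0.034) gave -0.0014 below 750 UMIs, a reversal, 0.058 from 750 UMIs and 0.0053 from 700 UMIs. At 1 month (0.86) they gave 0.94 below 750 UMIs, 0.90 from 700 UMIs and 0.81 with mt- genes at most 15%. The between-library ratios of digestive enzymes kept their direction in all settings run. For CCR2-DTR over WT at 6 months (3.16) they gave 3.31 below 750 UMIs, 3.04 from 750, 2.96 from 700 and 2.51 without barcodes of over 20%. At 1 month (3.92) they gave 5.33 from 750, 5.44 from 700 and 4.30 with hormone and mt- genes left out of the total. For age in CCR2-DTR (2.83) they gave 2.76 as the mean over barcodes, 2.50 below 750, 3.15 from 750, 3.04 from 700 and 2.17 without rich barcodes. For age in WT (3.58) they gave 2.93, 5.43 and 5.52 in the same 3 bands and 4.02 with the reduced total.

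Haemoglobin for CCR2-DTR over WT at 6 months (0.77) gave 3.26 below 750 UMIs, 0.44 from 750, 1.11 from 700 and, reversed, -7.38 without barcodes of over 20%. At 1 month (-3.73) it gave -3.94 with mt- at most 15%, -4.50 from 700 UMIs, -3.35 with the reduced total and, reversed, 4.20 from 750 and 3.57 without rich barcodes. For age in CCR2-DTR (2.06) it gave 1.79 as the mean over barcodes, 0.67 below 750, 3.19 from 750, 3.49 from 700 and, reversed, -7.55 without rich barcodes. For age in WT (-2.45) it gave -2.73 as the mean over barcodes, -6.47 below 750, -2.64 with mt- at most 15%, -2.12 from 700, -2.004 with the reduced total and, reversed, 6.94 from 750 and 3.41 without rich barcodes. Macrophage genes at 1 month (-2.37) gave -3.09 below 750, -1.76 from 750, -2.62 with mt- at most 15%, -2.22 from 700, -2.19 without rich barcodes and -1.98 with the reduced total. At 6 months (1.20) they gave 1.37 from 700. With the reduced total the genes past 2-fold were 4 lower for CCR2-DTR over WT at 6 months and 21 lower at 1 month, and 38 higher and 84 lower for age in WT. From 700 UMIs 33 were lower at 1 month. The leave-one-out fits of list levels, the bands from 700 UMIs and the haemoglobin alternative against deep cells were chosen after seeing the data.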
